A study of Caenorhabditis elegans with 2 samples.

Results

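The subject is the 9 microRNA genes of Caenorhabditis elegans that lay under a peak of RPC-1, which is the largest of the subunits that make up RNA polymerase III. They were chosen by that overlap, as the genes among 260 annotated microRNA genes that share at least 1 base with a peak of the thresholded list on build ce11, so their having a peak is a description and not a finding. The 9 were mir-4936, mir-51, mir-2214, mir-4812, mir-1829.2, mir-4937, mir-1829.3, mir-5549 and mir-53, in order of peak signal. RPC-1 was mapped by ChIP-seq, in which DNA bound by a protein is recovered with an antibody and sequenced. The samples were whole worms of strain N2, as young adults, with the sex given as males and females pooled. There was 1 group with 2 biological replicates, precipitated with an antibody named rpc-1, and a control library that served the authors' peak calling is not analysed here. Whole worms mix all tissues, so a weak peak in many cells and a strong peak in few cannot be told apart. Both replicates together gave a thresholded list of 1320 peaks, and each replicate had a relaxed list of its own with 30000 regions.

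RNA polymerase III makes short RNAs such as tRNAs, 5S rRNA and U6 snRNA. A tRNA gene carries its promoter inside the transcribed stretch, as an A box and a B box that the factor TFIIIC binds, and a run of T in the coding strand ends transcription. In vertebrates, U6 genes instead have upstream elements that include a TATA box. Most animal microRNA genes are transcribed by RNA polymerase II as longer transcripts, from which Drosha cuts the hairpin and Dicer the mature microRNA, whose seed, bases 2 to 8, pairs with targets.

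The mature sequences show which of the 9 genes make related microRNAs. They are given 5′ to 3′ from the RefSeq annotation and sequence of WBcel235, the same assembly as ce11, with the seed in capitals. Their arm, 5p or 3p, was set by position in the annotated gene. The mir-51 family shares the seed ACCCGUA, carried on the 5p arm of mir-51 and mir-53, which had a peak, and of mir-52, which had none, and on the 3p arm of mir-54, mir-55 and mir-56, which had none.
mir-51 5p: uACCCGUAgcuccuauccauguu
mir-53 5p: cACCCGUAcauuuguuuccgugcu
mir-52 5p: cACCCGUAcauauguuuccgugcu
mir-54 3p: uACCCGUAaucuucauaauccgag
A second group on the X chromosome shares the 3p seed AACCACU in mir-1829.2, mir-1829.3 and mir-4812, all of which had a peak. The annotated mature 3p sequences of mir-1829.2 and mir-1829.3 are the same. Their relative mir-1829.1, which had no thresholded peak, has the seed AACCAUU.
mir-1829.2 3p: cAACCACUggaauuucucuauu
mir-4812 3p: cAACCACUgcaauuucucuau
mir-1829.1 3p: cAACCAUUggaauuucucuauu
The other 4 genes, mir-4936, mir-4937, mir-2214 and mir-5549, share no seed with each other or with these groups. The mature sequences of mir-4936 and mir-4937 are shown because they lie next to or within promoter letters described further on.
mir-4936 3p: uGCUUUGUggcuuugcuggua
mir-4937 5p: cUGGGUAGagguugggcggugga

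The genomic stretches that hold letters of a tRNA-type promoter are shown for the 6 genes that had them, and for the unpeaked mir-1829.1. The B box was searched as GGTTCAANNCC or GGTTCGANNCC on both strands within 150 bp of the summit, with up to 1 mismatch, and the A box by its consensus 30 to 70 bases before the B box. Each stretch runs on the strand of the microRNA gene from 50 bases before the B box to the end of the first run of 4 or more T after it. The capitals mark the A box, the B box and the run of T, in that order. That run was searched from the base after the B box. In mir-1829.2, mir-1829.3, mir-4812 and mir-1829.1 the B box ends in a T followed by ttt. A run of 4 T thus already begins at the last base of the B box in these genes.
mir-4936, chrIII:3249218-3249294, plus strand: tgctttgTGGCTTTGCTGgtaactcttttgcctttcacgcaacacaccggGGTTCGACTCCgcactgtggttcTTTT
mir-4937, chrIV:1381727-1381807, minus strand: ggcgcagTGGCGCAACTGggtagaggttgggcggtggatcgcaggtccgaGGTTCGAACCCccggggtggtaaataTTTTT
mir-51, chrIV:11026140-11026214, minus strand: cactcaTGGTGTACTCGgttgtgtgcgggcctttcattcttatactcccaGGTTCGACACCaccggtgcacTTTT
mir-1829.2, chrX:14977021-14977186, plus strand: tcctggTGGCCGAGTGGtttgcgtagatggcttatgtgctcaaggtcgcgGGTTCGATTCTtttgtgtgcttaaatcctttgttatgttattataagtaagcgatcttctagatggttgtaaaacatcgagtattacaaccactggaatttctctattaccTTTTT
mir-1829.3, chrX:15236356-15236520, minus strand: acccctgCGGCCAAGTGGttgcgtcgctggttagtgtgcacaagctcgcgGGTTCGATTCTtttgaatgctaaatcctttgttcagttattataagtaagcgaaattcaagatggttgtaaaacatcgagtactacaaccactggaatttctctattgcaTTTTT
mir-4812, chrX:15242857-15242947, minus strand: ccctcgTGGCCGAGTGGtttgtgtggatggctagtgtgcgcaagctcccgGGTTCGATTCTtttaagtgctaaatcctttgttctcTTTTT
mir-1829.1, chrX:15588303-15588467, minus strand: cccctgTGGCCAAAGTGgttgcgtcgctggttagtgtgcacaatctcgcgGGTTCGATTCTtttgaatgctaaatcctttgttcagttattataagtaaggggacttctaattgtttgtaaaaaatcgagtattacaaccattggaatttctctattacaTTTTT

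The peaks at microRNA genes ranged from some of the stronger in the list to some of the weakest. Of 260 microRNA genes, 9 had a thresholded peak, which is 3.46% (exact 95% interval 1.59 to 6.47%). The same overlap was found for 3.82% of all 46890 annotated nuclear genes and for 7.08% of 5678 short noncoding RNA genes of other or unstated kind, so the share at microRNA genes was above neither. Peaks covered 0.445% of the nuclear genome. In the relaxed list of the pooled replicates, 48 microRNA genes (18.5%) met a region. By chromosome, 3 of 27 microRNA genes had a peak on chromosome III, 3 of 50 on IV and 3 of 73 on X, and none of 33, 49 and 28 on chromosomes I, II and V. These small counts are a description only, since the share of all genes was not taken by chromosome. The 3 on X are related in sequence, and mir-51 and mir-53 on IV are neighbours, so the genes are not independent. The intervals given for shares cover counting error only, and the read depth behind the peaks is unknown.

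Signal values are the authors', and were compared only within a list. In the thresholded list they ran from 35.6 to 1269 with a median of 145, and 5 of the 9 microRNA peaks were above that median. The list held exactly the 1320 strongest regions of the pooled relaxed list, so its end acted as a limit on signal. Just inside it was the peak of mir-53 at 38.1, and just outside was the region at mir-52 at 31.9.

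**Figure D1:**
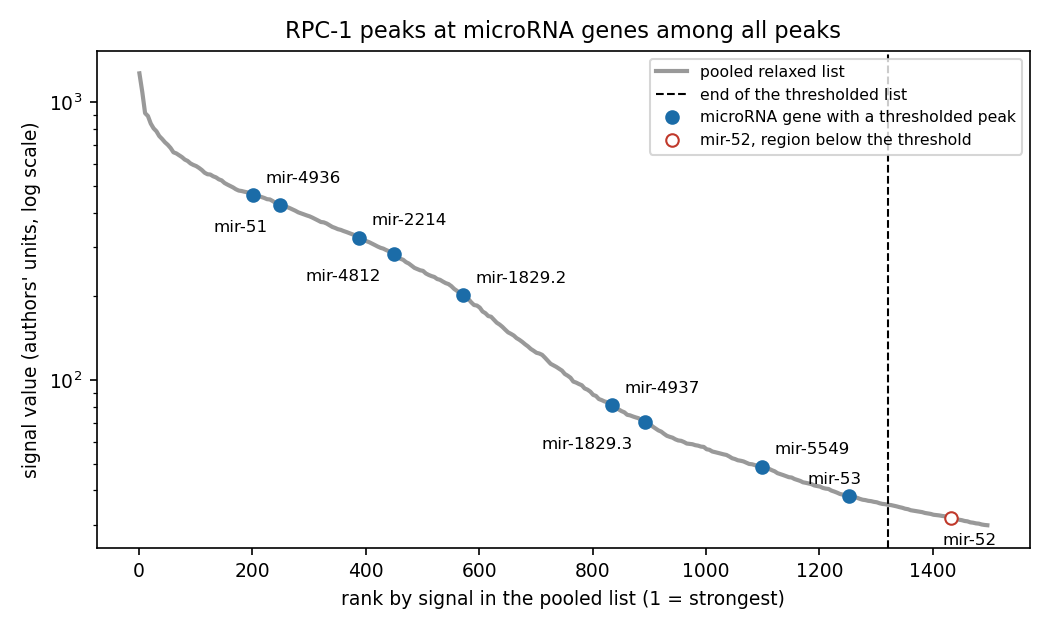
Signal value (authors' units, log scale) against rank in the pooled list (1 is the strongest); the grey curve is the list, filled points are the 9 microRNA genes with a thresholded peak, and the dashed line is the end of the thresholded list. The genes spread from rank 202 (mir-4936) to rank 1252 (mir-53), and mir-52 (open point, rank 1432) lies just past the line.

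mir-4936 (WBGene00219264, chrIII:3249151-3249260, plus strand) had the strongest of these peaks. It lies between protein-coding genes, and the nearest 5′ end is that of nduf-9, which encodes a subunit of mitochondrial complex I. The protein-coding gene Y53G8AL.4, on the other strand, lies 79 bp from mir-4936, and its 3′ end is under the peak. The thresholded peak at chrIII:3249043-3249391 had a signal of 463 and rank 202 of 1320. The replicates' own regions had signals of 148 (rank 222) and 315 (rank 197), so both placed it at nearly the same rank. The summit, the base of highest enrichment, was inside the gene in the thresholded list and in both replicates, 48, 59 and 48 bp from the 5′ end. The exact B box lay past the annotated end of the gene, with 7 bases between, and the A box, with 1 mismatch, lay wholly within the mature 3p sequence. A run of 4 T followed 12 bases after the B box. The nearest tRNA gene was 53679 bp from the summit.

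mir-51 (chrIV:11026013-11026112, minus strand) belongs to a family needed for embryonic development in C. elegans and lies between alh-3, an aldehyde dehydrogenase gene, and hrg-5, a haem-responsive gene. Its peak at chrIV:11025835-11026354 had a signal of 427 and rank 249. The replicates gave 133 (rank 286) and 290.4 (rank 246). The summit was not on the microRNA hairpin but 52 bp upstream of its 5′ end, and 53 and 55 bp upstream in the replicates. That summit fell on the exact B box. Both the A box, here exact, and the B box lay inside F36H1.17, an annotated noncoding RNA gene of 89 bp on the same strand (chrIV:11026131-11026219). The run of 4 T began 10 bases after the B box, upstream of mir-51, and 18 bases separate F36H1.17 from mir-51. Signal for the 2 genes cannot be told apart by a peak that covers both, and the summit was on F36H1.17.

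mir-2214 (chrIII:7278715-7278778, plus strand) lies in an intron of B0361.11, on the same strand as its host. Its peak at chrIII:7278578-7278972 had a signal of 325 and rank 388, with 123 (rank 320) in replicate 1 and 199 (rank 431) in replicate 2. The summit was inside the gene, 19 bp from its 5′ end. This was the strongest microRNA peak with neither a B box nor an annotated polymerase III gene close by. The noncoding RNA gene B0361.13, on the other strand, lies 184 bp from mir-2214 and 47 bp from the peak.

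mir-4812 (chrX:15242774-15242849, minus strand) lies in an intron of piki-1, a phosphoinositide 3-kinase gene, on the host's strand. Its peak at chrX:15242737-15243065 had a signal of 285 and rank 449. The replicates gave 91.7 (rank 452) and 194 (rank 446), the closest pair of ranks among the 9 genes. The summit lay 65 bp upstream of the gene, and 51 and 70 bp upstream in the replicates. That position was between the exact A box and the B box, which has 1 mismatch and ends 37 bases before the gene. The first run of T that starts after the B box, 5 bases long, was also upstream of the gene. The boxes and this run together end before the hairpin.

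mir-1829.2 (chrX:14977119-14977178, plus strand) lies in an intron of F20D1.3, again on the host's strand. Its peak at chrX:14976926-14977153 had a signal of 202 and rank 571, with 62.5 (rank 590) in replicate 1 and 141 (rank 558) in replicate 2. The peak covered 35 bp of the gene (58.3%), and the summit was 68 bp upstream in the thresholded list and within 4 bp of that place in both replicates. The summit lay between an exact A box and a B box with 1 mismatch that ends 37 bases before the gene. Here the first run of T that starts after the B box, 5 bases long, began 4 bp beyond the 3′ end. The last base of the B box and the bases just after it already make a run of 4 T, upstream of the hairpin. A weaker second peak, chrX:14977054-14977453 with a signal of 38.0 and rank 1258, also overlapped the gene and had its summit 76 bp downstream. It was at rank 12925 in replicate 1 and 1189 in replicate 2, far higher in replicate 2.

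mir-4937 (chrIV:1381705-1381814, minus strand) lies between protein-coding genes, with the summit at -4407 bp (upstream) from the nearest 5′ end, that of nhr-41, a nuclear hormone receptor gene. Its peak at chrIV:1381608-1382007 had a signal of 81.1 and rank 834. Replicate 1 gave 20.3 (rank 1059) and replicate 2 gave 65.02 (rank 792). The summit was 6 bp inside the gene in the thresholded list, 7 bp upstream in replicate 1 and 15 bp inside in replicate 2. An exact A box, an exact B box and a run of 5 T all lay inside the annotated gene, in the order of a tRNA-type unit. The mature 5p sequence overlapped the A box by 3 bases and ended 12 bases before the B box.

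mir-1829.3 (chrX:15236362-15236423, minus strand) lies in another intron of piki-1, 6351 bp from mir-4812, and it was the gene with a tRNA gene close by. Its peak at chrX:15236196-15236444 had a signal of 70.6 and rank 893, with 14.9 (rank 1632) in replicate 1 and 29.4 (rank 1141) in replicate 2. The summit was inside the gene in the thresholded list and in replicate 2, and 4 bp upstream in replicate 1. A stronger peak at chrX:15235979-15236285 (signal 219.97, rank 548), which does not overlap mir-1829.3, lay over the tRNA gene F39B1.t1 and the noncoding RNA gene F39B1.5. The stronger peak overlaps the peak of mir-1829.3, which itself reaches the last base of F39B1.t1 and into F39B1.5. F39B1.t1 is on the other strand, 166 bp from mir-1829.3 and 188 bp from the summit of its peak. How much of the signal at mir-1829.3 belongs to the tRNA gene was not tested. The B box of mir-1829.3, with 1 mismatch, ends 36 bases before the gene and lies outside the peak, and its A box also has 1 mismatch.

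mir-5549 (chrIII:6971976-6972085, minus strand) lies between eef-1A.1, which encodes a translation elongation factor, and rfc-4, which encodes a subunit of the clamp loader of DNA replication. The summit was 173 bp from the 5′ end of rfc-4 and 368 bp from that of eef-1A.1, which is on the other strand from rfc-4. The peak of mir-5549 at chrIII:6971880-6972279 had a signal of 48.6 and rank 1098, and it reached into rfc-4. To which of these genes the signal belongs was not tested. Replicate 1 ranked it 713 (signal 40.3) and replicate 2 ranked it 1579 (17.2), so the gene would not be among the 1320 strongest regions of replicate 2. The summit lay 9 bp upstream of the gene in replicate 1 and 42 bp inside it in replicate 2.

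mir-53 (chrIV:11027593-11027691, minus strand) lies 1480 bases upstream of mir-51 on the same strand and had the weakest peak. The peak at chrIV:11027600-11027999 had a signal of 38.1 and rank 1252, with 13.4 (rank 2127) in replicate 1 and 22.0 (rank 1332) in replicate 2. In neither replicate was it among the 1320 strongest regions. The summit lay 109 bp upstream of the gene, and 82 and 126 bp upstream in the replicates. A gap of 1245 bp separates this peak from that of mir-51, and the signal of mir-51 was 11.2 times that of mir-53 in the thresholded list, 9.90 times in replicate 1 and 13.2 times in replicate 2. The 2 neighbours of the same seed thus differed about as much in each list.

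The peaks of mir-5549, mir-4937 and mir-53 are each 400 bp wide. This width occurred in 460 of the 1320 peaks, with the summit at the centre in 456 of them and a median signal of 50.5, so the edges of these 3 peaks follow from that width. By summit position, 5 of the 9 genes (mir-4936, mir-5549, mir-2214, mir-4937 and mir-1829.3) had the summit inside, and mir-51, mir-53, mir-1829.2 and mir-4812 had it upstream. None had the main summit downstream. With the replicates' own summits, the number inside was 2 in replicate 1 (mir-4936 and mir-2214) and 5 in replicate 2. Replicate 2 gave the better rank for 7 genes and replicate 1 for mir-2214 and mir-5549.

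**Figure D2:**
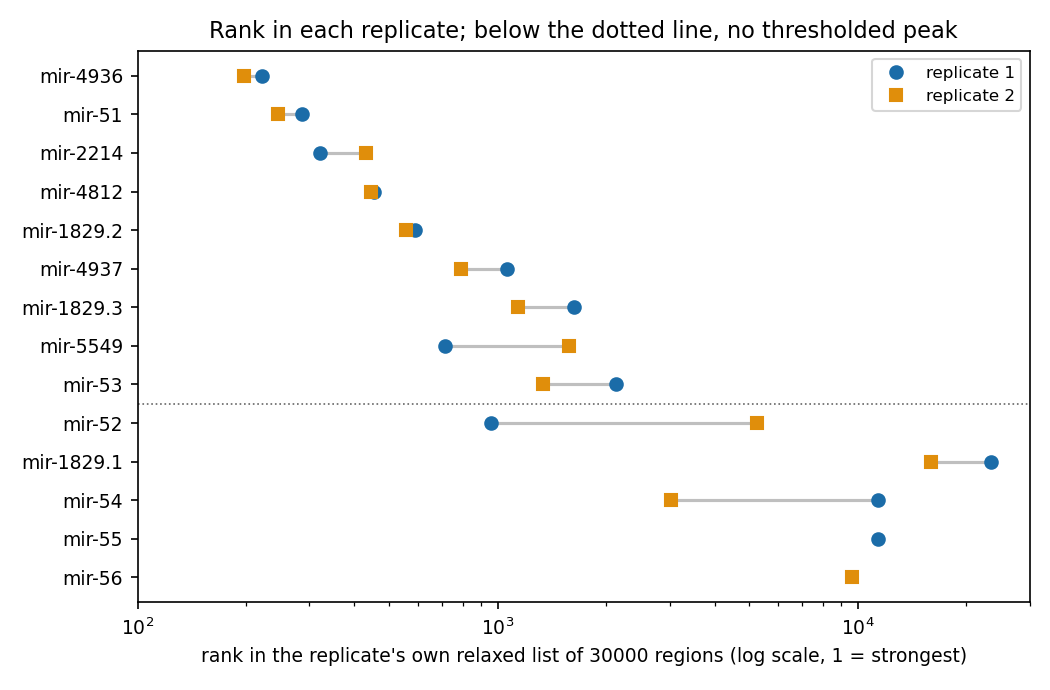
Rank in each replicate's own relaxed list of 30000 regions (log scale), with circles for replicate 1 and squares for replicate 2; the 9 genes above the dotted line had a thresholded peak and the 5 below it are unpeaked relatives. The 5 strongest genes stay within rank 590 in both replicates, while mir-52 is at rank 955 in replicate 1 and 5259 in replicate 2, and mir-55 and mir-56 each have a region in 1 replicate only.

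Of tRNA-type promoter letters, an exact B box was found near 3 of the 9 genes, and near 6 with 1 mismatch allowed. The shares of all nuclear thresholded peaks were 46.3% and 62.1%. Only 1 of the 9 genes had an annotated polymerase III gene nearby. At mir-51 the promoter letters lie inside the noncoding RNA gene F36H1.17. An annotated polymerase III gene (for a tRNA, 5S rRNA, U6, Y RNA or the RNA of RNase P, RNase MRP or the signal recognition particle) lay within 500 bp of the summit at mir-1829.3 alone, against 46.1% of all nuclear thresholded peaks and 1.2% of the 251 microRNA genes without a peak, measured there from the gene midpoint. An exact B box lay within 150 bp of the summit at 3 of 9 genes, mir-4936, mir-4937 and mir-51. Its share was 46.3% of the 1294 nuclear thresholded peaks, 1.48% of the 19229 relaxed regions outside that list, and 0.398% of microRNA genes without a peak, where mir-4806 was the single case.

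With 1 mismatch allowed, the B box was at 6 of 9 genes, adding mir-1829.2, mir-1829.3 and mir-4812. The matching shares were 62.1% of thresholded peaks, 7.5% of relaxed regions outside the list and 5.98% of unpeaked microRNA genes. The best match at each of the 6 genes was on the strand of the microRNA, and at mir-4937 a second match, with 1 mismatch, was on the other strand. In mir-1829.2, mir-1829.3 and mir-4812 the B box has the same letters, GGTTCGATTCT, and stands 36 or 37 bases before the gene. The share at microRNA peaks was near that of thresholded peaks in general, but the exact intervals on 9 genes are wide (29.9 to 92.5% for 6 of 9). They also treat the genes as independent, although mir-1829.2, mir-1829.3 and mir-4812 are related in sequence.

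An exact A box before a B box of at most 1 mismatch, a search added after the data were seen, was at 4 of 9 genes, mir-4937, mir-51, mir-1829.2 and mir-4812. The share was 54.7% of thresholded peaks, 1.99% of relaxed regions outside the list and 1.2% of unpeaked microRNA genes. In all 6 genes with a B box, an A box of at most 1 mismatch began 43 or 44 bases before it. Among matches with equally few mismatches the search took the one nearest to 44 bases, so this spacing was favoured. A pair with up to 1 mismatch in each box was in 59.7% of thresholded peaks, 4.09% of relaxed regions outside the list and 3.59% of unpeaked microRNA genes. A run of 4 or more T within 150 bases is common and carries little weight by itself, since 85% of the 260 microRNA genes had one after their midpoint and 90.4% of 1029 B boxes in thresholded peaks had one after them. A match of letters is a description and not a bound site.

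**Figure D3:**
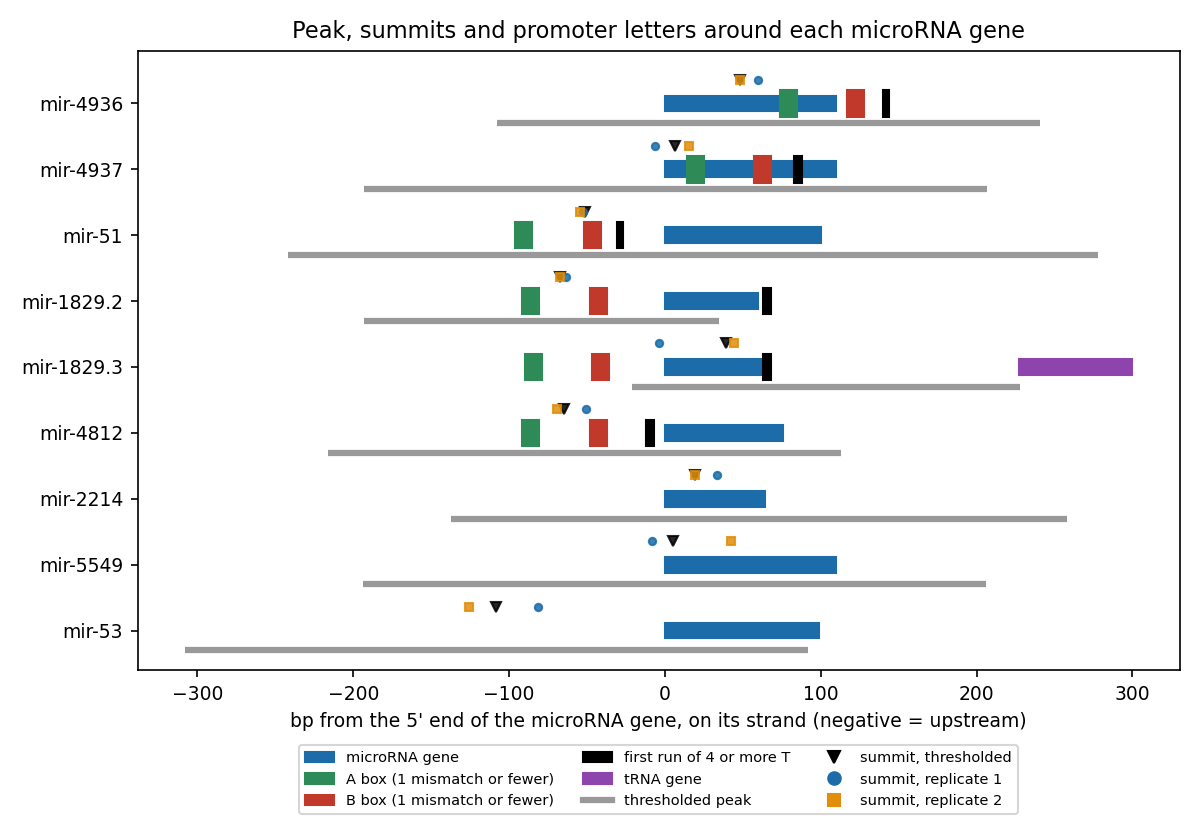
Each row is 1 gene, drawn on its strand in bp from its 5′ end (negative is upstream). The microRNA gene is blue, the thresholded peak a grey line, the A box green and the B box red. The first run of T that starts after the B box is black. Triangles, circles and squares are summits in the thresholded list, replicate 1 and replicate 2. The boxes lie upstream of mir-51, mir-1829.2, mir-1829.3 and mir-4812, inside mir-4937 and across the 3′ end of mir-4936, and the last 3 rows have none; second or neighbouring peaks are not drawn.

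**Figure D4:**
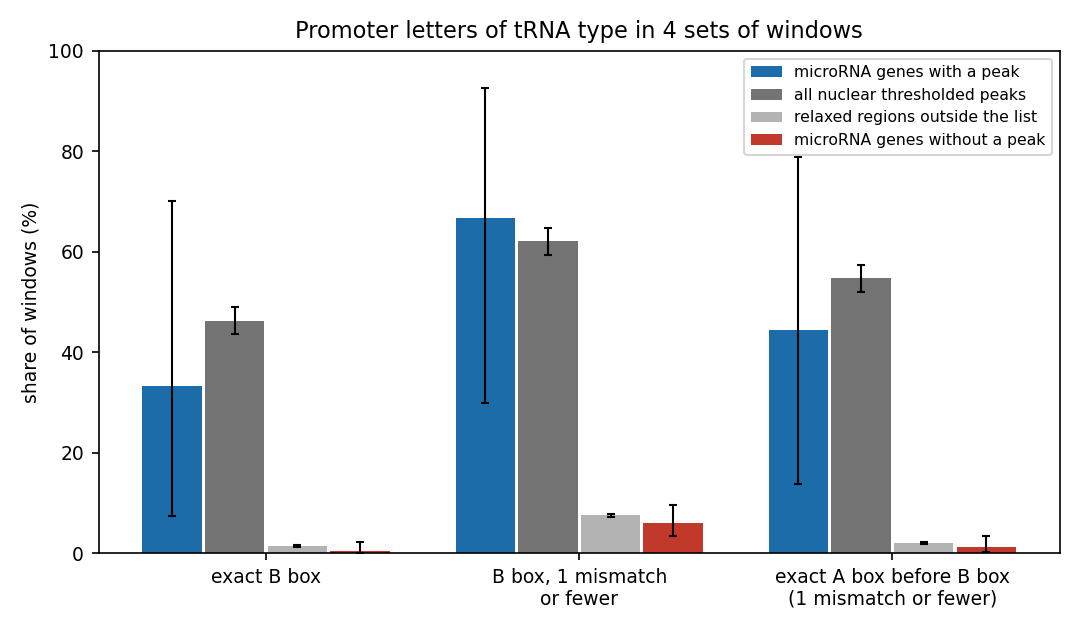
Share of windows (150 bp on each side of a summit or midpoint) that hold each feature, in %, for 9 microRNA genes with a peak, 1294 nuclear thresholded peaks, 19229 relaxed regions outside the list and 251 microRNA genes without a peak; bars start at 0 and error bars are exact 95% intervals. The microRNA genes with a peak (33.3, 66.7 and 44.4%) have wide intervals that hold the share of all thresholded peaks in each case.

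The 3 genes without a B box of up to 1 mismatch, mir-2214, mir-5549 and mir-53, were looked at for other letters, a choice made after the sequence of mir-2214 was seen. The letters TATAAA or TATATA stood within 50 bases before mir-2214, starting 31 bases before it, and before mir-53, starting 12 bases before it, and before none of the other 7. Of the 251 microRNA genes without a peak, 6 (2.39%) had them. A run of 4 or more T at the 3′ end of the gene (its first T from the 5th-last base of the gene to 11 bases after it) was present in mir-2214, mir-53, mir-5549, mir-1829.2 and mir-1829.3, and in 73 of the 251 (29.1%). mir-2214 and mir-53 had both features, as had 1 of the 251. The search was prompted by mir-2214, so its match cannot count toward a difference between the groups. The share of all thresholded peaks with these features was not measured. At mir-53 the summit lay 109 bp upstream of the gene, and the peak was among the 1320 strongest regions of neither replicate. The stretches from 50 bases before to 10 bases after mir-2214 and mir-53 are shown with the TATA letters and the run of T in capitals.
mir-2214, chrIII:7278665-7278788, plus strand: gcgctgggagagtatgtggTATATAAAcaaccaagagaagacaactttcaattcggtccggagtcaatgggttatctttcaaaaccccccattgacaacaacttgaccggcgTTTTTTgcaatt
mir-53, chrIV:11027583-11027741, minus strand: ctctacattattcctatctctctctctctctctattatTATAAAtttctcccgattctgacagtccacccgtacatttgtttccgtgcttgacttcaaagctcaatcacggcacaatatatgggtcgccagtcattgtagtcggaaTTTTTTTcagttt

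The mir-51 family had peaks at 2 of its 6 genes, against 3.46% of all 260 microRNA genes and 3.82% of all annotated nuclear genes. These 2, mir-51 and mir-53, were chosen for having a peak, so the count is a description. The summit at mir-51 was on F36H1.17, and mir-53 was among the 1320 strongest regions of neither replicate. mir-52 (chrIV:14034008-14034107) was 476 bp from the nearest thresholded peak and met a pooled relaxed region with a signal of 31.9 (rank 1432). It ranked 955 in replicate 1 (signal 23.0) and 5259 in replicate 2 (7.52), so the replicates differed more there than at mir-51. The X-linked genes mir-54, mir-55 and mir-56 lay 23206 to 23511 bp from the nearest thresholded peak. mir-54 and mir-55 met no pooled region but shared 1 region of replicate 1 (signal 7.87, rank 11404). In replicate 2, mir-54 met a region of signal 10.06 (rank 3028), a better rank than that of mir-52, and mir-55 met none. mir-56 met a pooled region of signal 12.7 (rank 7913) and one of replicate 2 (5.50, rank 9623), but none in replicate 1. No B box of up to 1 mismatch was found at mir-52, mir-53, mir-54, mir-55 or mir-56. Within the family a B box was thus found only near mir-51, and it lies inside the noncoding RNA gene F36H1.17.

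The family shares its seed, while the sequence before its genes varied. Identity over the 120 bp upstream was 45.5 to 56.7% between pairs of the family, where the median over 33604 pairs of microRNA genes more than 500 bp apart was 48.9% and the 95th percentile 53.8%. mir-52 and mir-53, which gave the weak region and the weak peak, were the most alike in the gene itself (79%) and upstream (56.7%), followed upstream by mir-53 and mir-55 (56.4%).

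In the mir-1829 group, both the gene and the sequence before it were alike. Upstream identity was 95.9% between mir-1829.1 and mir-1829.3, 86.0% between mir-1829.2 and mir-4812, and 77.0 to 78.9% for the other 4 pairs. Only 17 of the 33604 pairs reached 75%. In the gene itself mir-4812 had 61.8 to 64.6% identity with the other 3, and these had 80.6 to 90.3% among themselves.

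mir-1829.1 (chrX:15588311-15588370, minus strand) had nearly the same upstream letters but no thresholded peak. It has an exact A box and the same B box 36 bases before the gene, with the first run of T beyond the 3′ end. The nearest thresholded peak was 30944 bp away, and the pooled relaxed region there had a signal of 10.8 (rank 12155), with rank 23352 in replicate 1 and 15969 in replicate 2. The nearest annotated polymerase III gene was 166 bp from mir-1829.3, 1347 bp from mir-4812, 169384 bp from mir-1829.2 and 153680 bp from mir-1829.1, and its part in the peaks was not tested. Sequences repeated in the genome can lose reads or receive them wrongly. Of all 32-mers in the neighbourhood, those found at a single place in the genome made up 85.5% around mir-1829.1, 75.2% around mir-1829.3, 91.5% around mir-4812 and 96.5% around mir-1829.2, and 100% around the other members and the rest of the mir-51 family. The part of repeated sequence in these values was not tested.

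Outside the rule, the microRNA genes nearest to a thresholded peak without touching it were mir-237 (120 bp), mir-1819 (144 bp), mir-2212 (291 bp), mir-52 (476 bp) and mir-4921 (655 bp). Apart from mir-52, none of these met a region in any list, although each lay within 655 bp of a peak. The strongest pooled relaxed regions at unpeaked microRNA genes were at mir-52, mir-2216 (signal 21.5, rank 2126) and, in 1 region, mir-250 and its neighbour mir-61 (20.96, rank 2220). mir-2216 had no region in replicate 2. At mir-61, which is 46 bp from that pooled summit where mir-250 is 187 bp away, both replicates had a region (ranks 2808 and 9771), and mir-250 met only that of replicate 2. Of the 251 unpeaked microRNA genes, 39 met a pooled relaxed region with signals from 8.61 to 31.9, and 160 met no region in any list. mir-2213, 3052 bp from mir-5549, was the 1 other microRNA gene within 10 kb of a member.

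Among 19 well-studied microRNA genes, including lin-4, a founding regulator of larval timing, let-7 and mir-35 to mir-42, none had a thresholded peak (0 of 19, which allows up to 17.6% by the exact interval). That interval treats the genes as independent, which mir-35 to mir-41, side by side on chromosome II, are not, so it is too narrow. Relaxed pooled regions met 6 of them, of which mir-35 and mir-36 shared 1 region (15.2, rank 4711). The strongest was at mir-80 (20.2, rank 2365). mir-80 met no region in replicate 1 and one of rank 26682 in replicate 2. Over all 260 microRNA genes, 3.46% had a thresholded peak and 18.5% met a pooled relaxed region. The annotation gives let-7 as a gene longer than its hairpin, so its relaxed region need not be on the hairpin. Of 8 protein genes of the microRNA pathway (drsh-1, pash-1, dcr-1, alg-1, alg-2, ain-1, ain-2 and xrn-2), none had a thresholded peak within 250 bp of the 5′ end, which allows up to 36.9%. A pooled relaxed region came that near to 3 of the 8, alg-2, ain-1 and ain-2. Over all 19971 protein-coding genes, 1.8% had a thresholded peak and 22.7% a pooled relaxed region there.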

How the data were processed

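The authors deposited narrowPeak lists for an RPC-1 ChIP-seq experiment, per the labels. Per the submitters' list of files, relaxed lists were called on each replicate and on both pooled, with a control, and the thresholded list came from the irreproducible discovery rate procedure. The sources used here do not name the aligner or the caller. The signal value of each peak is as the authors deposited it, and each list has its own scale. Regions of a replicate were matched to a gene's peak by overlap with it and the nearest summit.

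Coordinates are 1-based on ce11, equal to the RefSeq assembly WBcel235, whose annotation (WormBase WS298) gave genes, mature microRNAs and sequence. Windows of 150 bp on each side of the summit, or of the midpoint for unpeaked genes, were searched for promoter letters. Uniqueness used 32-mers of each gene with 200 bp on each side. Identity is the share of matching columns in a global alignment.

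No test was made, since the genes were chosen on these lists and 1 group of 2 replicates gives none. The members and lists were chosen with earlier results of these data known. Named by rule were the members, the mir-51 family, other microRNA genes within 10 kb, the 5 nearest unpeaked microRNA genes, the 3 with the strongest relaxed regions (4 with a tie), nearby polymerase III genes and host or neighbouring coding genes. The mir-1829 relatives, the A box, the runs of T and the TATA letters were added after values or sequences were seen. Alternatives were stricter overlaps, the 660 strongest peaks, the pooled relaxed list, other windows and distances, and each replicate alone, as its 1320 strongest regions. The searches were tested on simulated data. The ce10 lists were not used, since no coordinate was moved between builds. Python 3.11.15, NumPy 2.4.6, SciPy 1.17.1, Biopython 1.88 and Matplotlib 3.10.9 were used.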

Additional observations from a re-analysis of the deposited data

How the results depend on the processing

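The 9 microRNA genes with a peak became 5 among the 660 strongest peaks (losing mir-5549, mir-4937, mir-53 and mir-1829.3, so 5 members were still met) and 48 in the pooled relaxed list. A summit within 100 bp gave 8, without mir-53, and a peak over at least 50% of the gene 9. With 1 replicate left out, the number was 7 to 9, and 7 to 8 of the members were still met. mir-53 was lost in both cases, mir-5549 without replicate 1, and mir-52 was gained without replicate 2. Without replicate 2, mir-1829.3 was met only by the region over the tRNA gene, since its own ranked 1632. Members with a polymerase III gene near the summit went from 1 to 0 at 100 bp. Members with a B box went from 3 to 6 with 1 mismatch, and were 2 with 75 bp and 4 with 250 bp on each side. Members with the summit inside the gene numbered 2 to 5 with 1 replicate left out, against 5. The median distance from the summit to the gene midpoint was -49.5 bp, and -63.5 to -39.5 bp with 1 replicate left out. mir-51 family genes with a peak went from 2 to 1 among the 660 strongest peaks and to 4 in the pooled relaxed list, and were 1 to 2 with 1 replicate left out. In the search added after the data were seen, 4 members with both boxes became 6 with 1 mismatch in the A box and 2 with an exact B box. The causes of these changes were not tested beyond what each setting does by construction. No paired analysis was possible because there was 1 group only.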
